A study of Mus musculus with 26 samples.

Results

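Surface markers of adipose progenitors were followed through the fat of lean, obese and formerly obese mice. The members are Pdgfra, Pdgfrb, Dpp4, Pi16, Cd55, Icam1, Cd34, Ly6a, Thy1 and F3, taken by symbol from the 39017 gene rows of each count table, and all 10 were found and passed the filter on low counts in both cell fractions. Male wild type C57BL/6J mice, 9 to 10 weeks old when the feeding began, received a 10% fat diet for 12 weeks (LFD, lean) or a 60% fat diet for 12 weeks (HFD, obese). A last group received the 60% fat diet for 9 weeks and then the 10% fat diet for 3 weeks (SW, formerly obese). Epididymal fat was split with collagenase into floating adipocytes and pelleted stromal vascular cells (SVC), and the RNA of each fraction was sequenced. The libraries used here were 3 of LFD, 3 of HFD and 3 of SW adipocytes, and 1 of LFD, 2 of HFD and 3 of SW SVC. The labels list 3 per fraction and diet, and 3 SVC columns whose names match none of these groups were not used. The columns of the count tables carry numbers that no label explains, so each library is named by that number and its group. By the labels, every adipocyte and every SW SVC replicate had a paired-end run, some with a single-end run as well. Some HFD and LFD SVC replicates had single-end runs alone. Which columns these are is not given, and the part of read layout in comparisons with SVC was not tested.

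White fat grows when progenitors in its stroma divide and mature into adipocytes, and when existing adipocytes swell. These progenitors carry the platelet-derived growth factor receptors, together with CD34, Sca-1 (encoded by Ly6a) and the glycoprotein Thy1. Within them, cells with Dpp4, Pi16 and Cd55 have been described as an early interstitial pool, cells with Icam1 as committed preadipocytes, and cells with F3 as a population that restrains adipogenesis. None of the markers belongs to progenitors alone, since mural cells carry Pdgfrb, endothelial cells carry Cd34 and Ly6a, and leukocytes can carry Icam1 and Thy1. Bulk RNA therefore cannot tell fewer cells of a type from less RNA per cell.

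Total counts per library ran from 5781902 to 23725647. The fractions carried their labels in the marker sums: 9 adipocyte genes together gave 4578 to 24493 CPM (counts scaled to library size) in adipocyte libraries and 241 to 1208 in SVC libraries. The adipocyte libraries also held RNA of other cells. Their 11 macrophage markers summed to 682 to 1100.5 CPM in LFD, 7785 to 8982 in HFD and 5660 to 8400.1 in SW mice, and no listed marker was at 0 in every library of a group. The pair of HFD SVC libraries stood apart from each other, with 6.34% of counts from mitochondrial genes in library 212 and 33.5% in library 411, against 4.36% to 9.54% in the other SVC libraries. By hemoglobin it was library 212 that stood apart, with 0.287% of counts against 2.76% to 5.15% in the other SVC libraries. The same held for its TMM scaling factor over all 15 libraries, 1.24 against 0.69 to 0.89 in the other SVC libraries. Calls that involve SVC of HFD mice are therefore given with and without each of libraries 212 and 411.

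Per kilobase of the longest annotated transcript, Ly6a had the highest group mean of the members in all 6 groups and Dpp4 the lowest. In lean adipocytes, Ly6a gave 341 ± 46.9 CPM per kilobase (SD, n = 3) and Cd34, a sialomucin of stem and endothelial cells, followed at 70.9 ± 13.4. Thy1, Pdgfrb, F3 and Cd55 came next, between 22.2 and 13.6, with overlapping libraries between neighbours in that order. Pi16 (8.62 ± 1.70) and Icam1 (8.34 ± 1.54) did not differ beyond their spread, and Pdgfra (3.77 ± 0.96) and Dpp4 (1.60 ± 0.14) closed the order. In SVC of SW mice, Pi16, a secreted and membrane-bound peptidase inhibitor, took the second place at 259 ± 20.4 CPM per kilobase, behind Ly6a (823 ± 241) and ahead of Cd34 (153 ± 22.2). The other 7 members there ran from Thy1 (93.5 ± 11.4) down to Dpp4 (2.40 ± 0.75). Ly6a belongs to a family of similar neighbouring genes and Cd55 has a close copy, Cd55b, so reads of these genes may be split among relatives by the estimated counts.

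**Figure D1:**
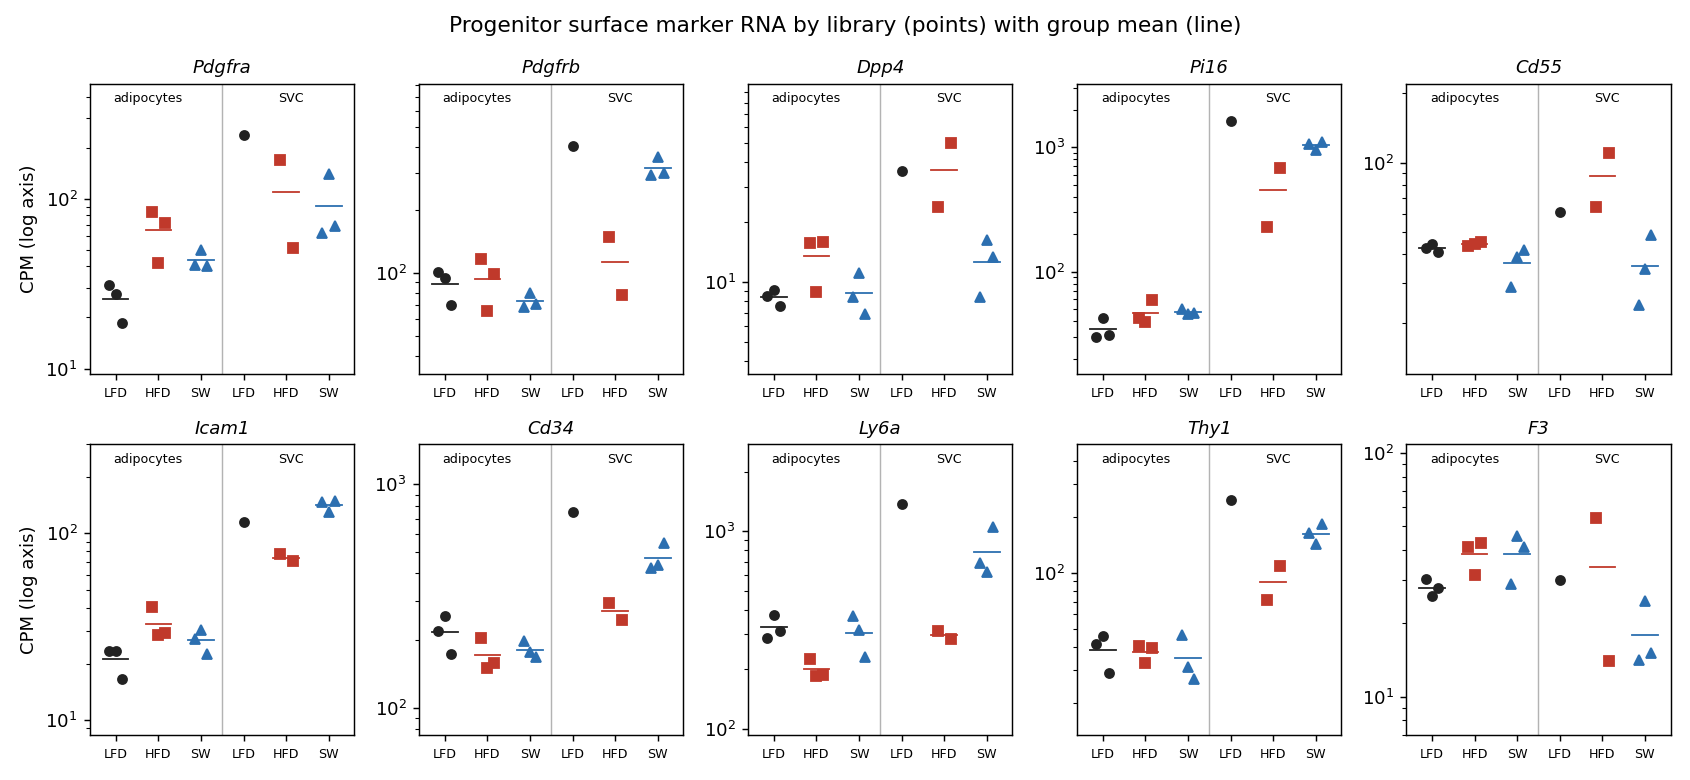
CPM of each marker (log axis, own scale per panel) in every library, by diet and fraction. Points are libraries, lines are group means, and a lone point is the single SVC library of LFD mice. Pdgfra, for example, lies between 18.5 and 31.2 in LFD adipocytes and between 41.8 and 83.1 in HFD adipocytes.

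Promoters of 7 members were matched in RefSeq (GRCm38.p6), and the 4 shown lie outside every exon of GENCODE M21 and precede the start of a member whose RNA changed between diets in the tests that follow. Each is the 250 bases before the annotated start, written 5′ to 3′ on the gene's strand, with motif matches in capitals. Pdgfra lies at chr5:75152001-75152250 (plus strand), Icam1 at chr9:21015690-21015939 (plus strand), Dpp4 at chr2:62412232-62412481 (minus strand) and Cd55 at chr1:130462745-130462994 (minus strand).
Pdgfra promoter: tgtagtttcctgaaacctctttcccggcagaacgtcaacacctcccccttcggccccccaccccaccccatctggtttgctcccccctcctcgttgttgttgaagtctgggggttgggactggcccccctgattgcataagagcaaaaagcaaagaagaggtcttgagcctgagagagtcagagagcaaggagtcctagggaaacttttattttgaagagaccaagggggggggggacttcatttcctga
Icam1 promoter: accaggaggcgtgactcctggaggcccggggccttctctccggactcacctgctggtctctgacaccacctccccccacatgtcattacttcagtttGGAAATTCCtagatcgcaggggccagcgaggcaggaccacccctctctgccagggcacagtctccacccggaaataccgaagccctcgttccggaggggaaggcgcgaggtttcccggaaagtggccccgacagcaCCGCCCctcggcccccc
Dpp4 promoter: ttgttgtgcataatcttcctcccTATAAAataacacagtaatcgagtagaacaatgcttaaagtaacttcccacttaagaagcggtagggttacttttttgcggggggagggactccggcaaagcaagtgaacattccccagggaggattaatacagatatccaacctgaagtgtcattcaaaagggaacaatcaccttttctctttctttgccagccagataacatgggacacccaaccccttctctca
Cd55 promoter: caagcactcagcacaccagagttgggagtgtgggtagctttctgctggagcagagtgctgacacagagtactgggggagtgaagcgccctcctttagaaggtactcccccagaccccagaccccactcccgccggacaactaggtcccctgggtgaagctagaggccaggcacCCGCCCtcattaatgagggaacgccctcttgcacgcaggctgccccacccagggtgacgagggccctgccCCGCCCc
The motif of NF-kB, searched like the others on both strands as GGAANTTCC, had 1 match in Icam1 and is found in 0.813% of all 32851 RefSeq promoter windows of this length. The GC box, searched as GGGCGG, had 1 match in Icam1 and 2 in Cd55, and 32.7% of windows hold it. The TATA box, searched as TATAAA, had 1 match in Dpp4, beginning 227 bases before the start, and is in 12.4% of windows. The motif of AP-1, searched as TGANTCA and present in 6.75% of windows, was in none of the 4, and Pdgfra held no match to any of these letters. These matches describe the letters of the windows and are not binding sites.

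The first comparison asked how obesity altered the markers in adipocytes. Pdgfra, the receptor tyrosine kinase that defines most adipose progenitors, rose, as did Icam1, an adhesion molecule of the immunoglobulin family. Ly6a, the GPI-anchored Sca-1 antigen, fell. These 3 of 10 members passed edgeR's quasi-likelihood test at a Benjamini-Hochberg adjusted p under 0.05, while 51.5% of all 14461 genes tested did, 26.5% higher and 25.0% lower. The median log2 fold change of the members was 0.24 against -0.03 over all genes.

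Pdgfra measured 31.2, 27.6 and 18.5 CPM in LFD libraries 404, 405 and 406. It measured 83.1, 41.8 and 72.4 CPM in HFD libraries 401, 402 and 403. Every HFD library lay above every LFD library, and library 402 was the lowest of the obese group. The log2 fold change was 1.33 (SE 0.26), a 2.51-fold difference, with an adjusted p of 0.00228 in edgeR. Pdgfrb, the second receptor of the family and a marker shared with pericytes, gave 100.8, 94.6 and 70.5 CPM in the same LFD libraries and 115.9, 65.3 and 99.2 in HFD. Those groups overlapped, and the log2 fold change was 0.06 with a 95% interval of -0.41 to 0.53.

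The interstitial markers gave smaller differences, none of which passed. Dpp4, a serine peptidase of the cell surface, measured 8.51, 9.12 and 7.60 CPM in LFD and 15.6, 8.88 and 15.9 CPM in HFD adipocytes. For Dpp4, library 402 lay within the range of the lean mice, and the adjusted p in edgeR was 0.0531 at a log2 fold change of 0.65. Without library 402 the log2 fold change of Dpp4 was 0.90 and its adjusted p 0.00595 in edgeR. Pi16 had a log2 fold change of 0.42 (adjusted p = 0.0698 in edgeR), with 39.3 to 58.9 CPM in HFD and 30.1 to 42.3 in LFD. It passed without HFD library 402 (adjusted p = 0.0298 in edgeR) or LFD library 405 (0.0267). Cd55, the decay-accelerating factor of the complement system, hardly varied, with 43.2 to 44.9 CPM in HFD and 40.6 to 44.3 in LFD, and the interval of its log2 difference was -0.27 to 0.33.

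Icam1 measured 23.3, 23.5 and 16.6 CPM in LFD and 40.1, 28.7 and 29.4 CPM in HFD adipocytes. No HFD library overlapped the LFD group, and library 401 was the highest. The log2 fold change was 0.60 (SE 0.19) with an adjusted p of 0.0239 in edgeR. The call was lost without HFD library 401 (adjusted p = 0.0845 in edgeR) or without LFD library 406 (0.0863). F3, the initiator of coagulation also called tissue factor, measured 25.9 to 30.4 CPM in LFD and 31.6 to 42.8 in HFD without overlap, yet missed the threshold at a log2 fold change of 0.44 (adjusted p = 0.0624 in edgeR). Without HFD library 402 it passed at 0.59 (adjusted p = 0.0232 in edgeR).

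Ly6a measured 288, 375 and 313 CPM in LFD adipocytes. In HFD adipocytes it measured 226, 186 and 186 CPM, all below the lean mice. It fell by 0.73 on the log2 scale (SE 0.19), with an adjusted p of 0.0107 in edgeR, and the call was lost without HFD library 403 (0.0534). Cd34, which stood at 175 to 257 CPM in LFD and 151 to 206 in HFD, had a log2 fold change of -0.36 and an adjusted p of 0.121 in edgeR. It passed without HFD library 401 (adjusted p = 0.0430 in edgeR) or LFD library 406 (0.0488). Thy1, a small glycoprotein of fibroblasts and T cells, overlapped fully, with an interval of -0.56 to 0.43. Groups without overlap were seen for 4 of 10 members (Pdgfra, Icam1 and F3 higher, Ly6a lower), against 62.7% of all genes tested, 32.1% being higher and 30.5% lower.

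**Figure D2:**
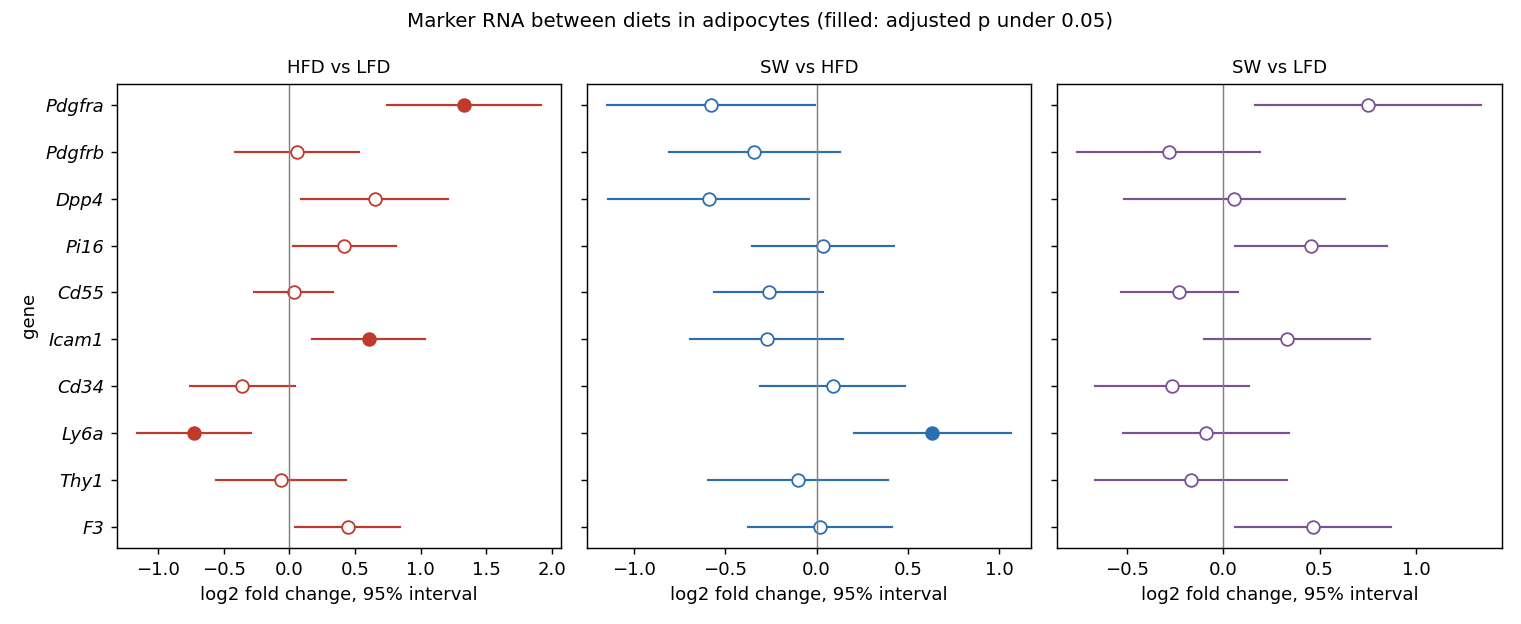
Log2 fold change of each marker in adipocytes (points) with its 95% interval (lines) for HFD against LFD, SW against HFD and SW against LFD. Filled points passed an adjusted p of 0.05 in edgeR: Pdgfra, Icam1 and Ly6a in the first comparison, Ly6a in the second and none in the third.

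Other cells of the fat moved in the same adipocyte libraries. All 11 macrophage markers rose between LFD and HFD with a median log2 fold change of 3.02, among them Adgre1 (4.49) and Cd68 (4.33), which mark tissue macrophages and their lysosomes. Endothelial markers fell in 8 of 10 cases, mural markers in 7 of 10 and mesothelial markers in 7 of 10, with Tagln and Acta2, contractile genes of smooth muscle, at log2 fold changes of -2.51 and -2.36. Summed over each list, mural markers gave 2137 to 2435 CPM in LFD and 748 to 985 in HFD. Endothelial markers gave 1979.9 to 2365 CPM in LFD and 832 to 1577 in HFD. The summed adipocyte markers gave 13875 to 24493 CPM in LFD and 4578 to 9443 in HFD, and 6 of the 9 genes fell. All 4 hemoglobin genes fell, from sums of 1861 to 2873 CPM to sums of 552 to 674. The 7 T cell and 4 B cell markers, of which 6 and 4 were tested, gave no call in edgeR. Their part in the changes of Pdgfra, Icam1 and Ly6a was not tested.

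Genes listed for stromal cells split in both directions. Of 10 fibroblast matrix genes, 6 rose and 1 fell with a median log2 fold change of 1.12. Col3a1, a fibrillar collagen, rose by 2.27 and Lum, a collagen-binding proteoglycan, by 2.16, while Gsn fell by 0.75. Of 13 further interstitial progenitor genes, 5 rose and 2 fell, from Has1 (2.66), a hyaluronan synthase, and Creb5 (2.41) down to Ly6c1 (-0.92) and Bmp7 (-1.47). Of 11 committed preadipocyte genes, 2 rose and 3 fell. Those that rose were Sdc1 (1.05), a syndecan, and the fatty acid transporter Cd36 (0.64), and Fabp4, a fatty acid carrier, fell by 1.36. The fall was steepest for Dlk1 (-2.39), a Notch-like inhibitor of adipogenesis, which reached 3.55 to 4.28 CPM in LFD and 0.28 to 1.41 in HFD. Of 9 genes of the F3 population, 4 rose and 3 fell, with Clec11a (1.60) and Abcg1 (1.40) at the upper end and Vit (-1.56) and Meox2 (-1.36) at the lower. Of 10 other stromal surface genes, 3 rose and 4 fell, with the hyaluronan receptor Cd44 at 2.38, the tetraspanin Cd9 at 1.65, Cd24a at -0.75 and the ectonucleotidase Nt5e at -1.99. Not all listed genes were mainly stromal in their RNA. Between the fractions of SW mice, 5 of 11 committed preadipocyte genes were higher in SVC and 4 lower, among them Fabp4 (-6.14) and Cd36 (-3.16). Of 9 genes of the F3 population 6 were higher and 2 lower, among them Meox2 (-3.27). The part of adipocyte RNA in their changes between LFD and HFD was not tested.

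Of the 4 ligands of the receptor pair, 2 fell and none rose. Pdgfb, the ligand that endothelium sends to mural cells, fell by 0.75 on the log2 scale (adjusted p = 0.00180 in edgeR), from 104 to 111 CPM in LFD to 55.8 to 77.7 in HFD. Pdgfa fell by 0.60 (adjusted p = 0.00440 in edgeR), from 20.6 to 24.7 CPM to 14.3 to 15.9. Pdgfc and Pdgfd had log2 fold changes of 0.00 and -0.09 and were not called. In SW adipocytes Pdgfb and Pdgfa were still below LFD, by -0.74 and -0.53 on the log2 scale (adjusted p = 0.00560 and 0.0240 in edgeR).

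**Figure D3:**
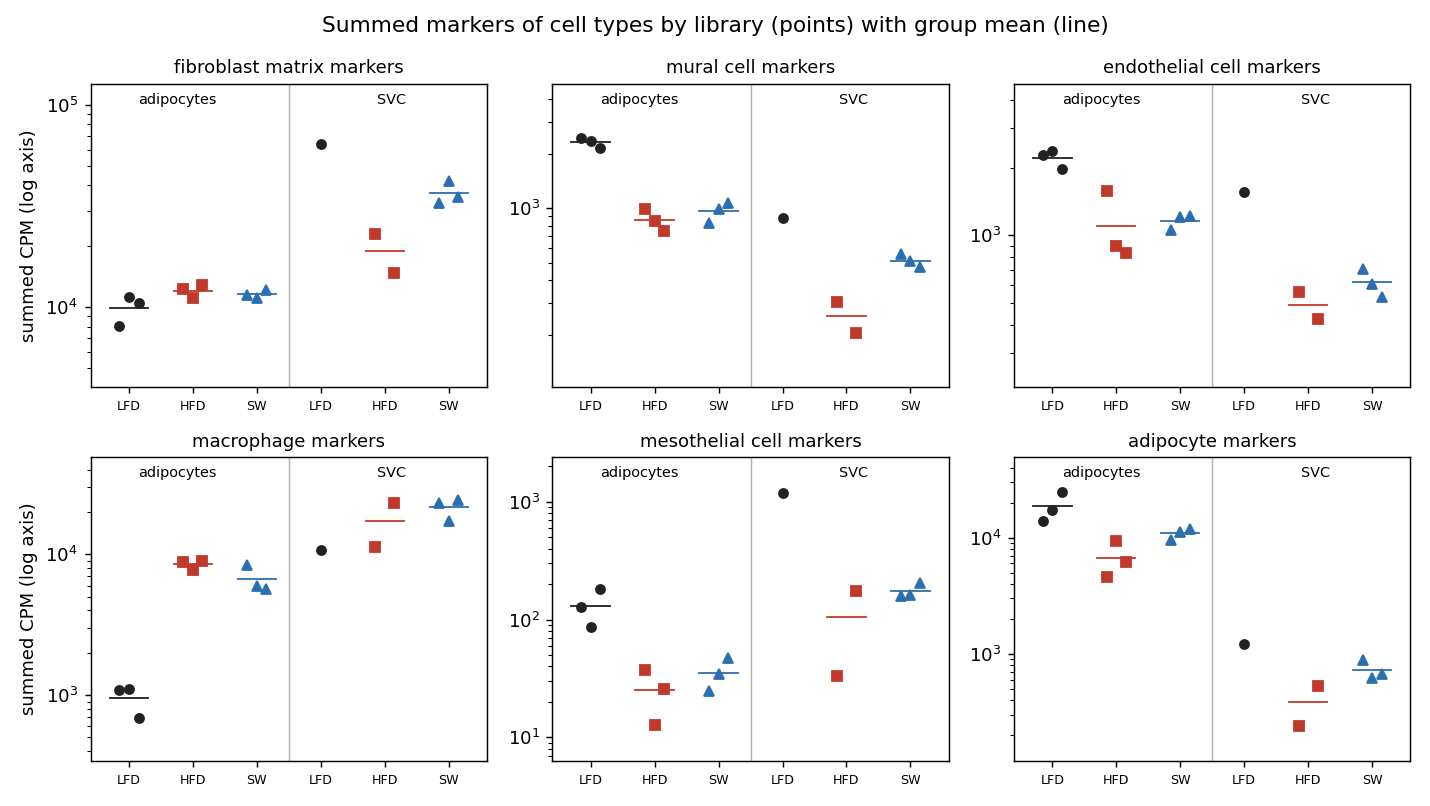
Summed CPM of marker lists of 6 cell types (log axis) in every library, by diet and fraction, with points for libraries and lines for group means. In adipocytes the macrophage sum runs from 682 to 1100.5 in LFD and from 7785 to 8982 in HFD mice, while the mural sum runs from 2137 to 2435 and from 748 to 985.

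The second comparison asked what the return to LFD did in adipocytes. Only Ly6a passed between SW and HFD, 1 of 10 members, and it rose. Of all genes tested, 31.4% passed, 15.6% being higher in SW. It measured 372, 318 and 231 CPM in SW libraries 407, 408 and 409, and the lowest of them was just above the highest HFD library at 226. The log2 fold change was 0.63 (SE 0.19), with an adjusted p of 0.0332 in edgeR. The call did not survive the loss of HFD library 401, 402 or 403 or of SW library 407 or 408, with an adjusted p of up to 0.130. Pdgfra measured 40.9, 49.6 and 40.4 CPM in SW adipocytes, between the lean and the obese groups in its mean. Its log2 fold change against HFD was -0.58 (adjusted p = 0.107 in edgeR, interval -1.15 to -0.01). Dpp4 gave 6.88 to 11.1 CPM in SW mice and a log2 fold change of -0.59 (adjusted p = 0.0909 in edgeR). The remaining 7 members had log2 fold changes between -0.34 and 0.09. Without HFD library 402, Pdgfra (-0.85, adjusted p = 0.0162), Dpp4 (-0.85, 0.0158) and Pdgfrb (-0.57, 0.0337) passed as lower in SW in edgeR.

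Other cells and 1 library moved with Ly6a in this comparison. All 4 hemoglobin genes rose, from sums of 552 to 674 CPM in HFD to 1169 to 1896 in SW, the highest in library 407. Of 10 endothelial markers, 2 rose, Egfl7 (0.96) and Esam (0.83), while the endothelial sums overlapped at 1059 to 1223 CPM in SW. Of 10 mural markers 3 rose and 1 fell, 4 of 9 adipocyte markers rose and 4 of 11 macrophage markers fell, among them Adgre1 (-1.22). Of 4 B cell markers 2 rose, as did 1 of 6 T cell markers tested. T cell sums were 44.1, 23.8 and 7.77 CPM in SW libraries 407, 408 and 409, against 6.68 to 12.9 in HFD. Library 407, the highest in Ly6a, stood apart from the other SW libraries. Its counts differed from theirs by 92.3 and 82.1 in chi-square per degree of freedom, against 12.9 between those 2. Its TMM factor among adipocyte libraries alone was 0.84 against 1.02 for both. Over all 15 libraries it was 0.94 against 1.15 and 1.13. The part of these cells in the rise of Ly6a was not tested.

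Against lean mice, no member passed in SW adipocytes in edgeR, where 17.1% of all genes did, and 3 members had an unadjusted p under 0.05. Those were Pdgfra (log2 fold change 0.75, adjusted p = 0.0782 in edgeR), Pi16 (0.45, 0.109) and F3 (0.46, 0.109). DESeq2 called 1 member, Pdgfra, and limma-voom called 0. Without SW library 407, F3 passed in edgeR (0.63, adjusted p = 0.0249). Pdgfra and Pi16 did not overlap between the groups, with SW libraries of 40.4 to 49.6 CPM above LFD libraries of 18.5 to 31.2 for Pdgfra, and 46.0 to 50.2 above 30.1 to 42.3 for Pi16. For all genes tested, 36.7% had groups without overlap here, and 19.1% had SW above LFD. Comparisons with HFD and with LFD share the SW libraries, so their values are not independent of each other.

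Lean mice were also set against obese and formerly obese mice together. The weights the study gives for its contrast have this form if read in the order LFD, HFD and SW. The formula printed beside them sets HFD against LFD and SW instead, and that form was not tested here. On the contrast of LFD with both others, Pdgfra, Pi16 and F3 were lower in LFD, 3 of 10 members against 40.1% of all genes, 20.7% being lower. Pdgfra stood lower by -1.04 on the log2 scale (SE 0.24, adjusted p = 0.00640 in edgeR), and this held in each of 14 alternative fits. Pi16 (-0.44, adjusted p = 0.0472) and F3 (-0.45, adjusted p = 0.0449) lay near the threshold of edgeR and were called in 5 and 6 of the 14. Each of these calls was lost without HFD library 401 or 403, LFD library 404 or 406 or SW library 408 or 409, and also without SW library 407 for Pi16 and without LFD library 405 for F3. Icam1 missed it narrowly (-0.47, adjusted p = 0.0510 in edgeR) and passed without HFD library 402 (0.0408) or SW library 409 (0.0388), while Ly6a passed as higher in LFD without SW library 407 (0.0234).

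The ratio of Pdgfra to Pdgfrb counts within a library needs no scaling between libraries. It is not corrected for transcript length, so it is read only from library to library. In adipocytes it was 0.31, 0.29 and 0.26 in LFD libraries 404, 405 and 406, then 0.72, 0.64 and 0.73 in HFD libraries 401, 402 and 403, and 0.60, 0.62 and 0.57 in SW libraries 407, 408 and 409. The 3 diets formed 3 ranges without overlap, with SW close under HFD. Its mean in HFD was 2.42 times that in LFD, and its mean in SW was 2.07 times that in LFD. An exact two-sided permutation test over 3 against 3 libraries cannot go below 0.1 and gave 0.1 for each of these pairs, or 0.269 after Benjamini-Hochberg adjustment over the 35 comparisons of 7 ratios. Library 402, whose CPM of both receptors were the lowest of the obese mice, had a ratio of 0.64, above every SW and LFD library.

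**Figure D4:**
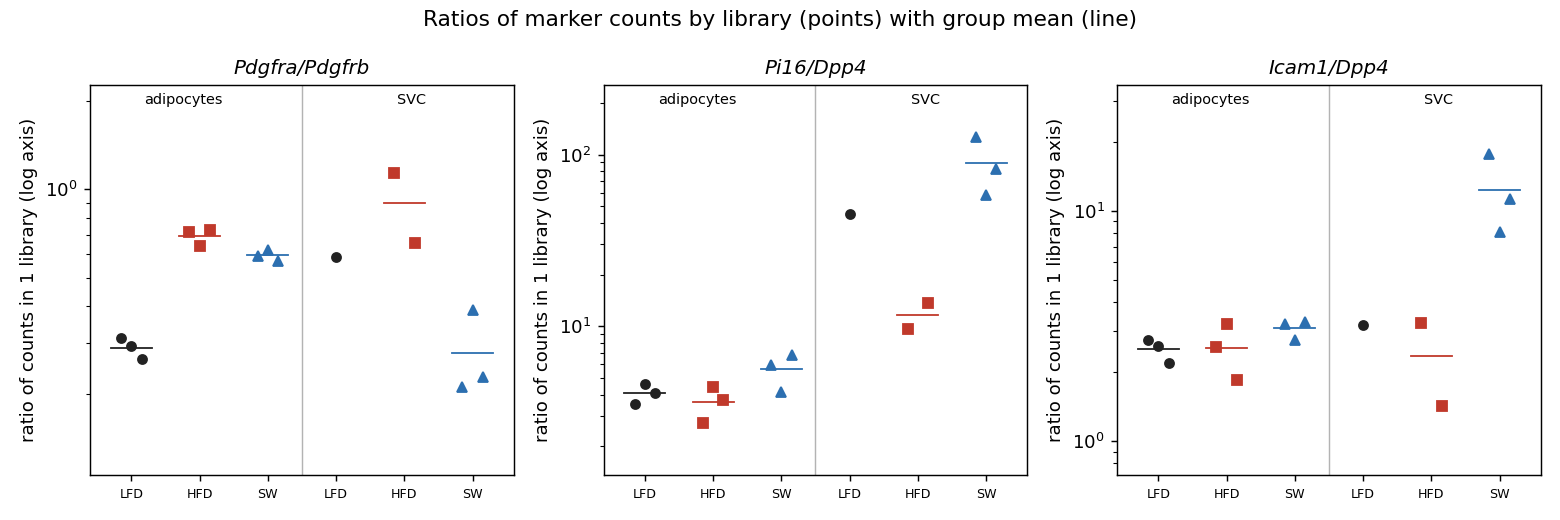
Ratios of marker counts within a library (log axis) for Pdgfra to Pdgfrb, Pi16 to Dpp4 and Icam1 to Dpp4, by diet and fraction, with points for libraries and lines for group means. The first ratio runs from 0.26 to 0.31 in LFD, 0.64 to 0.73 in HFD and 0.57 to 0.62 in SW adipocytes, and the second from 9.68 to 13.7 in HFD and 58.4 to 127 in SW SVC.

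The third comparison asked which markers had more RNA in the stromal fraction. In SVC of HFD mice, 6 of 10 members were higher than in adipocytes and none was lower, against 29.1% of all 17441 genes called, 16.2% of all being higher. Pi16 differed most, at 230 and 684 CPM in SVC libraries 212 and 411 against 39.3 to 58.9 in adipocytes, a log2 difference of 3.28 (SE 0.35, adjusted p = 5.7e-05 in edgeR). It was 2.28 without library 411 and 3.86 without library 212, past the threshold in both. Dpp4 (1.45), Thy1 (1.26), Icam1 (1.18), Cd55 (0.98) and Cd34 (0.66) also passed. Thy1 (0.92 without 411 and 1.53 without 212) and Icam1 (1.24 and 1.12) passed without either library. Without SVC library 411, Dpp4 (0.81, adjusted p = 0.166 in edgeR) and Cd55 (0.53, 0.238) no longer did, and without 212 they stood at 1.89 and 1.32. Cd34 was lost without either HFD SVC library and without HFD adipocyte library 402 or 403 (adjusted p up to 0.104 in edgeR). For Pdgfra the interval of the difference was -0.22 to 1.71, and for Pdgfrb -0.32 to 0.88. Pdgfra passed as higher in SVC without SVC library 411 (adjusted p = 0.0498 in edgeR), and F3 passed as lower without SVC library 212 (0.00545).

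In SW mice, 8 of 10 members differed between the fractions, against 68.4% of all genes, 35.6% higher and 32.8% lower in SVC. Pi16 again led, at 1063, 944 and 1100.1 CPM in SVC libraries 412, 413 and 414 and 46.0 to 50.2 CPM in adipocytes, which is 21.7-fold (log2 4.44, SE 0.35, adjusted p = 4.1e-07 in edgeR). Icam1 (2.41), Thy1 (2.22), Pdgfrb (2.13), Cd34 (1.37), Ly6a (1.36) and Pdgfra (1.06) were higher in SVC too. F3 was the single member lower in SVC, at 14.2, 24.7 and 15.2 CPM against 29.0 to 45.7 in adipocytes (log2 -1.09, SE 0.38, adjusted p = 0.0208 in edgeR). The F3 call was lost without SVC library 412 or adipocyte library 408 or 409, with an adjusted p of up to 0.0687. The call of Pdgfra was lost without SVC library 413 (adjusted p = 0.308 in edgeR) or any 1 of the SW adipocyte libraries. Dpp4 and Cd55 did not pass, and the interval for Cd55 was -0.57 to 0.49. The libraries of the fractions also differed in summed macrophage markers, with 17219 to 24404 CPM in SW SVC against 5660 to 8400.1 in SW adipocytes, and in mural markers, with 474 to 556 against 822 to 1074. Their part in the differences of the members was not tested.

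The fourth comparison set SVC of SW mice against SVC of HFD mice. Pdgfrb, Icam1 and Ly6a rose and Dpp4 and Cd55 fell, 5 of 10 members against 17.5% of all 16319 genes, of which 5.71% were higher and 11.7% lower. Groups were without overlap for 8 of 10 members, against 58.6% of all genes, 28.5% being higher and 30.0% lower. The calls stood close to the threshold and rested on 2 HFD libraries of different quality. Data were also simulated with 96 genes changed by 1 and 97 by 2 on the log2 scale, among 15629. There this comparison recovered 0% of the changes of 1, and 15.2% of its calls were false. That is a far smaller share of changed genes than the 17.5% called here, so the simulated rates need not hold for these data. In limma-voom 0 of the members passed, against 1557 of all 16319 genes. In edgeR 0 members passed without SW library 412, 413 or 414. Of all genes, 0 passed without 412, 0 without 413 and 593 of 16532 without 414. Leaving out HFD library 212 or 411 leaves a lone HFD library.

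Pdgfrb measured 148 and 78.5 CPM in HFD libraries 212 and 411, and 296, 361 and 302 CPM in SW libraries 412, 413 and 414. The groups were well apart, with a log2 fold change of 1.38 (SE 0.36, adjusted p = 0.0476 in edgeR). Without HFD library 212 the log2 fold change was 2.08, and without 411 it was 0.94, both past the threshold. Pdgfra went otherwise, at 168 and 51.5 CPM in HFD and 62.7, 140.0 and 69.4 CPM in SW, with overlapping groups and an interval of -1.84 to 1.00. Its log2 difference changed sign between the fits without 1 library, from -1.06 to 0.87. The Pdgfra to Pdgfrb ratio was 1.14 and 0.66 in HFD and 0.21 to 0.39 in SW libraries (exact two-sided permutation p = 0.2, the smallest that 3 against 2 libraries allow).

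Of the interstitial markers, Dpp4 and Cd55 fell and Pi16 did not. Dpp4 fell from 23.7 and 49.8 CPM in HFD to 8.35, 16.2 and 13.3 CPM in SW libraries, a log2 change of -1.61 (SE 0.39, adjusted p = 0.0431 in edgeR). Cd55 fell from 63.9 and 110.3 CPM to 24.0, 34.3 and 48.3 CPM, a log2 change of -1.37 (SE 0.35, adjusted p = 0.0459 in edgeR). Pi16 lay on the opposite side, at 230 and 684 CPM in HFD and 1063, 944 and 1100.1 CPM in SW, without overlap but without passing (log2 1.13, adjusted p = 0.109 in edgeR). It passed without HFD library 411 (log2 2.01, adjusted p = 0.0114 in edgeR). The Pi16 to Dpp4 count ratio was 9.68 and 13.7 in HFD and 58.4 to 127 in SW libraries, again without overlap (exact two-sided permutation p = 0.2). The calls of Dpp4, Cd55 and Ly6a were lost when any 1 of the 5 libraries compared was left out, with adjusted p-values from 0.0533 to 0.159 in edgeR.

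Icam1 varied little within SVC groups. It measured 77.3 and 71.0 CPM in HFD libraries and 147, 131 and 150.0 CPM in SW libraries, and rose by 0.85 on the log2 scale (SE 0.21, adjusted p = 0.0445 in edgeR). It did not pass without HFD library 212 (1.06, adjusted p = 0.0615 in edgeR) and passed without 411 (0.72, 0.0390). Ly6a went from 311 and 283 CPM to 688, 620 and 1048 CPM, a log2 change of 1.30 (SE 0.33, adjusted p = 0.0460 in edgeR). Cd34 (0.69, adjusted p = 0.0962) and Thy1 (0.78, adjusted p = 0.0671) had groups without overlap in the same direction and did not pass in edgeR, and Thy1 did without HFD library 411 (0.0239). F3 measured 54.2 and 14.0 CPM in HFD libraries, a spread wider than its difference to SW, and its log2 difference ran from -1.75 (without HFD library 411, adjusted p = 0.0167 in edgeR) to 0.42 (without 212). Mural markers summed to 205 to 303 CPM in HFD and 474 to 556 in SW SVC, with 3 of 10 higher and 1 lower. Fibroblast matrix genes summed to 14719 to 23056 CPM and 32592 to 42132, with 2 of 10 higher. Within that sum Gsn went from 5351 and 9023 CPM to 17838 to 23185, without passing (adjusted p = 0.0765 in edgeR). Lum ran the other way without passing, from 252 and 670 CPM to 99.5 to 199 (adjusted p = 0.0614 in edgeR), and Col3a1 overlapped. Macrophage sums overlapped, at 11257 to 23281 and 17219 to 24404 CPM. The part of these cells, and of the mitochondrial share of library 411, in the changes of the members was not tested beyond leaving out the libraries.

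**Figure D5:**
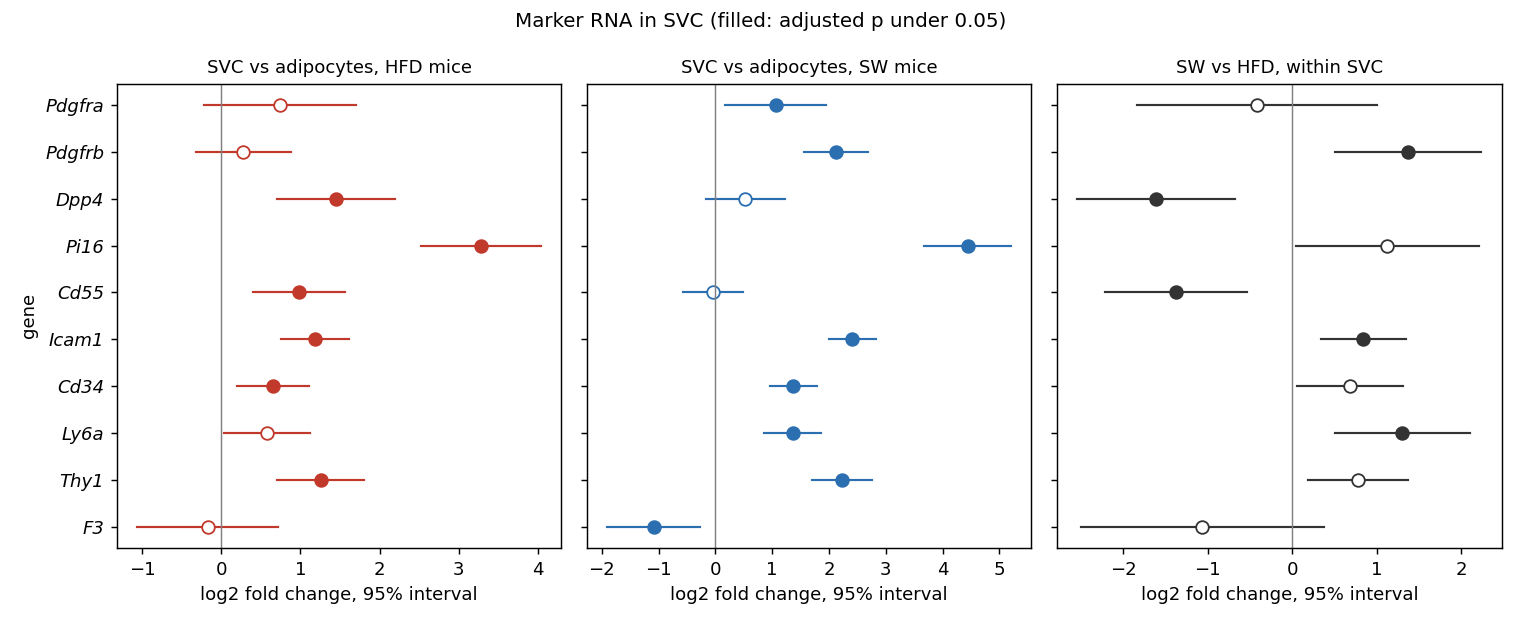
Log2 fold change of each marker (points) with its 95% interval (lines) for SVC against adipocytes in HFD and in SW mice and for SW against HFD within SVC. Filled points passed an adjusted p of 0.05 in edgeR. Pi16 stands farthest to the right in both comparisons of fractions, at 3.28 and 4.44, and Dpp4 farthest to the left within SVC, at -1.61.

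Whether the switch from HFD to LFD acted differently on the fractions was tested as an interaction. The change was larger in SVC than in adipocytes for Pdgfrb (1.85 on the log2 scale, SE 0.38, adjusted p = 0.00467 in edgeR) and Icam1 (1.23, SE 0.27, adjusted p = 0.00633 in edgeR), 2 of 10 members against 27.1% of all genes, 11.4% in that direction. Both held in each of 16 alternative fits, including those without HFD SVC library 212 (2.38 for Pdgfrb and 1.29 for Icam1) or 411 (1.37 and 1.07). In adipocytes alone the log2 fold changes from HFD to SW were -0.34 for Pdgfrb and -0.27 for Icam1. In the same test 5 of 10 fibroblast matrix genes were higher, as were 3 of 10 mural markers (Acta2 at 1.31) and 2 of 11 macrophage markers (Adgre1 at 1.13), and 1 mural marker was lower. Of 13 further interstitial progenitor genes 4 were higher and 1 lower, and of 11 committed preadipocyte genes 4 were higher and 4 lower. Of 9 genes of the F3 population 4 were higher and 1 lower, and of 10 other stromal surface genes 1 was higher and 2 lower. The part of the cells with these markers in the interaction was not tested. The difference did not pass for Cd55 (-1.02, adjusted p = 0.0541 in edgeR), Thy1 (0.97, 0.0576), Pi16 (1.16, 0.0825) or Dpp4 (-0.92, interval -1.95 to 0.10). Without HFD SVC library 411, Pi16 (2.06), Thy1 (1.21) and F3 (-1.67) passed as well, and so did Cd55 without SVC library 212 (-1.36) or 414 (-1.35) and Cd55 and Thy1 without SW adipocyte library 407 (-1.23 and 1.17).

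Of the LFD SVC libraries 1 column was used, number 236, so there was no replicate and its differences are given without a test. It held 1619.8 CPM of Pi16, 1380.8 of Ly6a, 756 of Cd34, 405 of Pdgfrb, 245 of Thy1 and 238 of Pdgfra, each above every HFD and SW SVC library. Against it, the HFD libraries were lower in log2 terms for Ly6a (-2.06), Pi16 (-1.72), Pdgfrb (-1.67), Cd34 (-1.33) and Thy1 (-1.32), while the median of all genes was 0.33. Between these libraries 20.0% of all genes were at least 2-fold lower and 35.1% at least 2-fold higher. Icam1 (114 CPM) lay between the HFD and the SW libraries. The SW libraries differed from it most for Dpp4 (-1.46) and Pdgfra (-1.35), with a median of 0.07 over all genes and 14.5% of genes at least 2-fold lower and 21.7% at least 2-fold higher. The same LFD library had 1192 CPM of summed mesothelial markers against 32.9 to 206 in the other SVC libraries. Its fibroblast matrix sum was 63707 CPM, of which Gsn gave 37570. The part of the cells with these markers in the differences was not tested.

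Across all 15 libraries, the genes closest in pattern were sought by the root mean square difference of centred log2 CPM among 12725 genes tested in both fractions. The 15 points share fraction and diet, and closeness is given as a description. Nearest to Pdgfra were Antxr1 (0.30), Cacna1a (0.34) and Lama2 (0.34), against a median of 1.18 over all genes. Nearest to Dpp4 were Ildr2 (0.36), Ogn (0.39) and Cmah (0.43), with Cd55 at rank 16 and Pi16 at rank 12109. Nearest to Icam1 were Ndst2 (0.22), Wwp2 (0.23) and Itga5 (0.23), with Thy1 the first member at rank 201. This distance counts the size of differences between libraries as well as their direction. By it Dpp4 and Pi16, markers of the same interstitial pool, lay far apart, and Pi16 was also at rank 10807 from Pdgfra and 5756 from Icam1.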

How the data were processed

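The values are RNA-sequencing estimated counts of each gene, deposited by the authors as whole numbers that were not normalized, after alignment by Bowtie2 and quantification by RSEM. The submitters' processing notes name mm9, while positions and promoters here are from GRCm38. Tool versions, and whether repeat runs were added up, are not given in the sources used here. Columns were assigned to groups by name, 3 SVC columns, whose names give either no diet or a code found in no label, were left out, and where nothing ties libraries to separate mice p-values measure only the spread between these libraries. No pair of libraries differed as little as counting noise.

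Counts were rounded and tested with edgeR 4.0.16 in R 4.3.3: filterByExpr (minimum count 10), TMM factors, robust quasi-likelihood fit per fraction, or over both fractions for comparisons between them, without covariates, and Benjamini-Hochberg adjusted p under 0.05 over all genes. Printed CPM use TMM factors over all 15 libraries. Intervals are 95%. Exact permutation tests used log2 ratios. Scripts were tested on simulated data with known changes of 1 and 2 on the log2 scale. Each size of change was given to 96 to 99 genes among 14288 to 16781, a far smaller share than was called in the data. The simulated rates need not hold for the data. For SVC SW against HFD, 0% and 40.2% of the changes of 1 and 2 were recovered, and 15.2% of calls were false. For HFD against LFD adipocytes, 52.6% and 93.9% were recovered, and 7.14% of calls were false. For SVC against adipocytes in SW mice the values were 22.9%, 64.6% and 2.27%. DESeq2 1.42.0, limma-voom (limma 3.58.1), other scaling factors, no filter, the groups compared alone and each library left out were alternatives. With 1 SVC library of LFD mice no test was made against it. The text names the members, the PDGF ligands, from each list up to 2 called genes per direction with the largest change in HFD against LFD adipocytes, and the 3 genes nearest to Pdgfra, Dpp4 and Icam1. The members and lists were chosen with earlier results of these data known. Python 3.11.15 with pandas 2.3.3, numpy 2.4.6, scipy 1.17.1 and matplotlib 3.10.9 read the tables and drew the plots.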

Additional observations from a re-analysis of the deposited data

Results flagged for a closer look

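Pdgfrb and Icam1, 2 of 10 members, responded unequally in the fractions to the switch of diet, by a test of the difference itself. Of all genes, 27.1% were called in that test, 11.4% in the same direction. For Pdgfrb the change in SVC minus that in adipocytes was 1.85 on the log2 scale (adjusted p = 0.00467 in edgeR), with adipocyte means of 93.5 CPM in HFD and 73.2 in SW and SVC means of 113 and 320 CPM. For Icam1 it was 1.23 (adjusted p = 0.00633 in edgeR), with adipocyte means of 32.7 and 26.8 CPM and SVC means of 74.1 and 143 CPM. In the same test 5 of 10 fibroblast matrix genes, 3 of 10 mural markers and 2 of 11 macrophage markers were higher, and 1 mural marker was lower. Of 13 further interstitial progenitor genes 4 were higher and 1 lower, and of 11 committed preadipocyte genes 4 were higher and 4 lower. Of 9 genes of the F3 population 4 were higher and 1 lower, and of 10 other stromal surface genes 1 was higher and 2 lower. The part of the cells with these markers was not tested.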

How the results depend on the processing

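No paired analysis was possible because the numbers in the column names are in no label and no label pairs a column with a sample. In adipocytes, HFD against LFD called 3 members, 6 without a filter on low counts, 5 with only the groups compared, and 2 to 6 with 1 library left out. Over all genes it called 7448 of 14461, 7144 of 23589 without a filter and 7838 of 14372 with only the groups compared. With 1 library left out it called 5757 to 7250 genes. SW against HFD called 1 (0 to 3 with 1 library left out), and SW against LFD called 0, with 1 called, Pdgfra, in DESeq2 and with only the groups compared, and 0 to 1 with 1 library left out. LFD against HFD and SW together called 3 (1 to 4 with 1 library left out). Over all genes, SW against HFD called 4546, or 1522 to 4290 with 1 library left out. SW against LFD called 2468 (3056 in DESeq2, 2188 with only the groups compared), or 1678 to 2176 with 1 library left out. LFD against both called 5802, or 4069 to 6542 with 1 library left out. SVC SW against HFD called 5 members, 8 in DESeq2, 0 in limma-voom, 3 with upper-quartile factors, and 0 to 5 with 1 library left out. Over all genes the same comparison called 2849 in edgeR, 5166 in DESeq2 and 1557 in limma-voom, and without 1 library 0 (SW library 412 or 413), 593 (SW 414), 503 (HFD 212) and 6213 (HFD 411). SVC against adipocytes called 6 in HFD mice (4 to 6 with 1 library left out) and 8 in SW mice (6 to 8). The interaction called 2 members, 7 in DESeq2, 4 in limma-voom, and 2 to 5 with 1 library left out. Of all 17441 genes, the interaction called 4727 in edgeR, 5430 in DESeq2 and 4660 in limma-voom. With 1 library other than HFD SVC left out, it called 3459 to 4929 genes and 2 to 4 members. SVC against adipocytes called 5078 of all genes in HFD mice and 11925 in SW mice in edgeR. With 1 adipocyte library left out, the comparison in HFD mice called 3255 to 3852 genes and 5 to 6 members. With 1 library of either fraction left out, the comparison in SW mice called 10690 to 11558 genes. A lone library left in a group was assumed to vary like the others. The cause of these shifts was not tested. Of the log2 values of single members, 397 kept direction and call under the other settings, 24 became called, 13 lost the call and 6 uncalled values changed sign. Those were Pdgfrb (-0.036) and Cd55 (-0.061) in HFD against LFD adipocytes with upper-quartile factors, Pi16 (-0.0098) and F3 (-0.023) in SW against HFD adipocytes without a filter, and Cd55 between SW fractions in DESeq2 (0.0193) and with RLE factors (0.0190). With 1 library left out, 429 kept both, 25 became called, 57 lost the call and 29 changed sign, none of them called in either fit. The ranges of the values that changed sign were, in HFD against LFD adipocytes, -0.13 to 0.29 for Pdgfrb, -0.0043 to 0.066 for Cd55 and -0.23 to 0.078 for Thy1. In SW against HFD adipocytes they were -0.11 to 0.21 for Pi16, -0.028 to 0.24 for Cd34, -0.36 to 0.052 for Thy1 and -0.14 to 0.18 for F3. In SW against LFD they were -0.16 to 0.22 for Dpp4 and -0.25 to 0.083 for Ly6a, and for Thy1 in LFD against both others -0.027 to 0.29. In SVC SW against HFD they were -1.06 to 0.87 for Pdgfra and -1.75 to 0.42 for F3. Between HFD fractions they were -0.35 to 1.35 for Pdgfra, -0.25 to 0.66 for Pdgfrb and -1.46 to 0.49 for F3, between SW fractions -0.41 to 0.072 for Cd55, and in the interaction -0.38 to 1.41 for Pdgfra and -1.67 to 0.38 for F3. Depth limits Dpp4 most, which stood at 61 counts in LFD adipocyte library 404.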
